A study of Canis lupus familiaris with 18 samples.

Results

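Only 5 of the 24580 genes in the count table met a strict definition of restriction to vascular smooth muscle cells (VSMCs). They were selected on their measured values, and the definition asked for at least 5 CPM (the reads of a gene per 1000000 reads counted in that sample) in each of the 9 VSMC samples. It also asked for less than 2 CPM in each of the 9 samples of canine primary endothelial cells (CaPECs). The genes are ENSCAFG00000018123, ENSCAFG00000015788, ENSCAFG00000018877, ENSCAFG00000014146, and ENSCAFG00000014847. All 5 are named because there are so few of them, a choice made after their values were seen. No identifier of the table matched the RefSeq gene table at hand (0 of 24580), so symbols, functions, gene lengths, and sequences are not used here. For the same reason, the labelled cell types were not checked against known marker genes.

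VSMCs form the muscular wall of arteries and veins, and they set the width of the vessel by contracting and relaxing. They carry a set of contractile proteins, among them smooth muscle actin and calponin, and they also make extracellular matrix. In culture VSMCs divide and can lose part of the contractile program, and VSMCs of different vessels can stem from different embryonic tissues. CaPECs come from the inner lining of the same vessels, which separates the blood from the wall.

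RNA was sequenced from cultures of both cell types at passage 3, derived from the aorta, the vena cava, and the vena porta of young adult male dogs described as healthy, with 3 samples for each vessel and cell type. The vessels were left over from cadavers of dogs used in other research, on pacemakers, and what was done to each animal is not given in the sources used here. The CaPECs were released from the inverted vessel by a short enzyme digestion, and the VSMC fraction came from the minced rest of the wall, so other cells of the wall can be part of it. CaPECs were grown in an endothelial growth medium on gelatin and VSMCs in a serum-containing standard medium, and cell type and culture medium cannot be told apart in these data. Samples are numbered from 1 to 3 within each vessel and cell type. The number was taken as the dog among VSMC samples, whose 3 vessels share an isolation code, but a VSMC and a CaPEC sample of the same number carry different codes and were not paired. In bulk RNA, fewer cells of a type and less RNA per cell cannot be told apart.

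The samples held 7341227 to 15746769 counted reads in VSMCs and 6020932 to 13422177 counted reads in CaPECs. At these depths, 5 CPM corresponded to 36.7 to 78.7 reads in VSMCs, and 2 CPM corresponded to 12.04 to 26.8 reads in CaPECs. At least 5 CPM in all VSMC samples was reached by 7810 genes, and 12634 genes stayed below 2 CPM in all CaPEC samples, of which 7671 had no read in any of the 18 samples. The mirrored definition, with the cell types exchanged, was met by 8 genes.

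**Figure D1:**
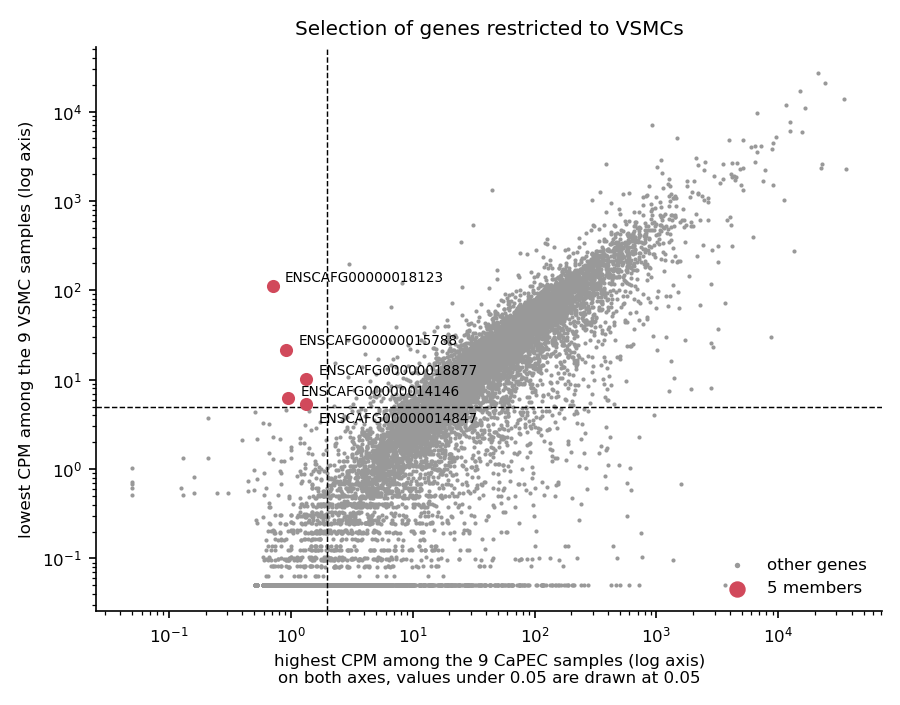
Each point is a gene, placed by its highest CPM among the 9 CaPEC samples (x axis, log scale) and its lowest CPM among the 9 VSMC samples (y axis, log scale). Genes below 0.5 CPM on both measures are not drawn, and dashed lines mark 2 CPM and 5 CPM. The 5 genes (red) are the points in the upper left field, and ENSCAFG00000018123 lies farthest from both lines.

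ENSCAFG00000018123 was well clear of both limits, with a lowest VSMC value of 112.1 CPM and a highest CaPEC value of 0.710 CPM. ENSCAFG00000014847 was the nearest to the VSMC limit, at 5.35 CPM in VSMCs of aorta 1. ENSCAFG00000014847 and ENSCAFG00000018877 were the nearest to the CaPEC limit, both at 1.33 CPM in CaPECs of aorta 2. These distances follow from the selection and are given as a description, without a test. Just outside lay ENSCAFG00000009001, with at least 5.02 CPM in VSMCs but 2.28 CPM in CaPECs of aorta 3, and ENSCAFG00000015728, which had at most 0.921 CPM in CaPECs but 4.60 CPM in VSMCs of vena porta 3. ENSCAFG00000008123 missed the CaPEC limit with 2.33 CPM in aorta 2, although its mean in VSMCs was 96.6 CPM. These genes, too, were picked after their values were seen.

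The definition asks every sample to pass, so single samples set the number of genes. Without the CaPEC sample of vena cava 3, 8 genes met it, and without the VSMC sample of vena porta 3, 9 genes did. With any other single sample left out, the number was 5 to 7. The 5 genes were among those found with each of the 18 samples left out. The definition fixes this in advance, since leaving out a sample can only add genes. A further 21 genes had at least 5 CPM in all VSMC samples and a highest CaPEC value between 2 and 5 CPM. The CaPEC sample with that highest value was aorta 2 in 4 of them and aorta 3 in 4, and all CaPEC samples except vena porta 2 were the highest for at least 1 of the 21.

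The 5 genes together took 231.3 ± 30.3 CPM in VSMCs (SD, n = 9) and 1.43 ± 1.37 CPM in CaPECs (SD, n = 9). In VSMCs the sum ran from 192.5 CPM in vena porta 1 to 297.4 CPM in vena cava 2. ENSCAFG00000018123 alone supplied between 49.9% and 77.8% of it. Since CPM does not account for gene length, the level of one gene is not compared with that of another, and each gene is described across samples.

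ENSCAFG00000018123 had 185, 129, and 115 CPM in VSMCs of aorta 1, 2, and 3. In vena cava 1, 2, and 3 it had 181, 179.7, and 113 CPM, and in vena porta 1, 2, and 3 it had 127, 134, and 112 CPM. The vessels overlapped, and the values of dog 3 were the lowest in every vessel and nearly equal to each other, at 113, 112, and 115 CPM, although on the TMM scale, which corrects library sizes for composition, dog 3 was below dog 2 in only 2 of the 3 vessels. The means were 143.3 ± 37.2 CPM for the aorta, 157.8 ± 38.7 CPM for the vena cava, and 124.6 ± 11.4 CPM for the vena porta (SD, n = 3 each). This gene varied least of the 5 in proportion to its mean, with a coefficient of variation of 21.8% over the 9 VSMC samples. Its counts were between 911 and 2844, where counting alone gives an error of at most 3.31%.

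ENSCAFG00000015788 had 21.7, 26.5, and 41.2 CPM in VSMCs of aorta 1, 2, and 3, and 27.9, 36.3, and 49.6 CPM in vena cava 1, 2, and 3. In vena porta 1, 2, and 3 it had 33.1, 39.6, and 40.6 CPM. In each of the 3 vessels the order was the same, with dog 1 lowest and dog 3 highest, and the vessels overlapped. The means of the vessels were 29.8 ± 10.2 CPM for the aorta, 37.9 ± 10.9 CPM for the vena cava, and 37.8 ± 4.08 CPM for the vena porta (SD, n = 3 each).

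ENSCAFG00000018877 had 19.5, 32.9, and 32.2 CPM in VSMCs of aorta 1, 2, and 3. In vena cava 1, 2, and 3 it had 10.1, 35.7, and 18 CPM, and in vena porta 1, 2, and 3 it had 17.2, 47.2, and 32.8 CPM. Dog 1 was the lowest and dog 2 the highest in every vessel, although in the aorta dogs 2 and 3 were close. On the TMM scale, dog 2 was above dog 3 in 2 of the 3 vessels. The means were 28.2 ± 7.55 CPM for the aorta, 21.3 ± 13.1 CPM for the vena cava, and 32.4 ± 15.0 CPM for the vena porta (SD, n = 3 each), so the spread within a vessel was wide.

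ENSCAFG00000014146 had 6.25, 24.6, and 9.61 CPM in VSMCs of aorta 1, 2, and 3. In vena cava 1, 2, and 3 it had 16.9, 30.1, and 31.1 CPM, and in vena porta 1, 2, and 3 it had 7.22, 14.2, and 14.2 CPM. All vena cava samples lay above all vena porta samples, and the aorta overlapped with both veins. How many of all genes separate 2 vessels in this way was not counted. The means were 13.5 ± 9.79 CPM for the aorta, 26.0 ± 7.91 CPM for the vena cava, and 11.9 ± 4.02 CPM for the vena porta (SD, n = 3 each). Its coefficient of variation over the 9 VSMC samples was 55.0%, the widest of the 5.

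ENSCAFG00000014847 had 5.35, 6.58, and 11.4 CPM in VSMCs of aorta 1, 2, and 3. In vena cava 1, 2, and 3 it had 8.51, 15.7, and 15.0 CPM, and in vena porta 1, 2, and 3 it had 7.63, 8.76, and 9.77 CPM. Dog 1 was the lowest in every vessel, and the vessels overlapped. The means were 7.79 ± 3.22 CPM for the aorta, 13.1 ± 3.98 CPM for the vena cava, and 8.72 ± 1.07 CPM for the vena porta (SD, n = 3 each). These values rest on 56 to 152 reads per sample, where counting alone gives an error of up to 13.4%.

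**Figure D2:**
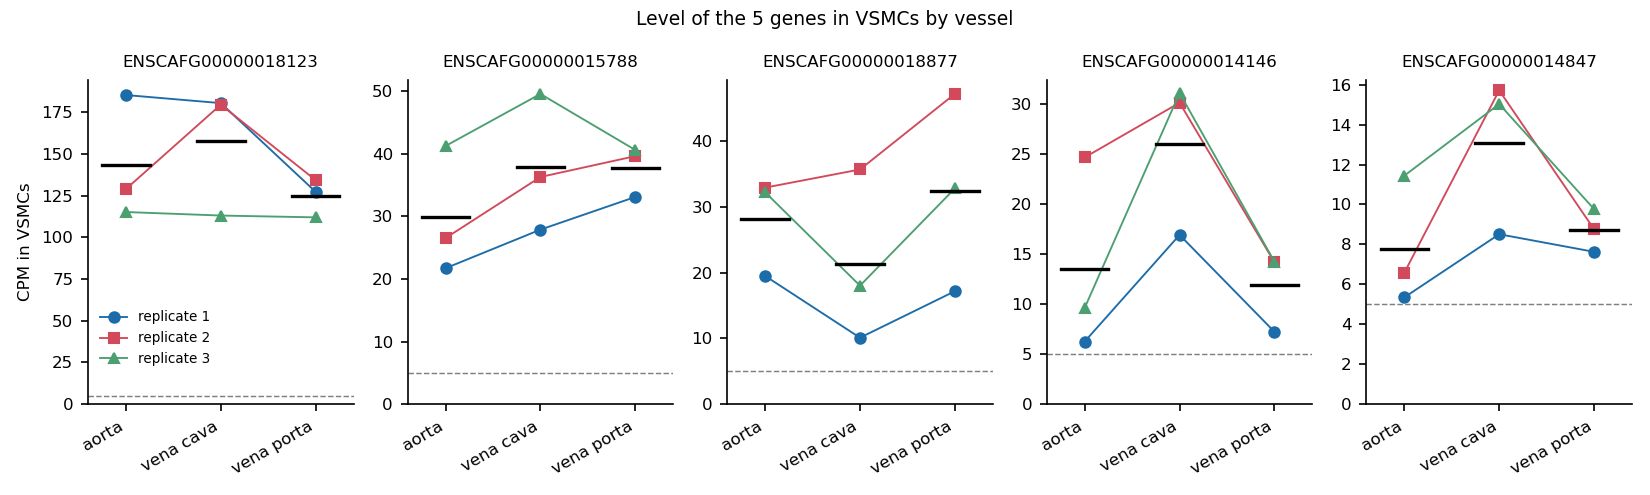
CPM of each of the 5 genes (1 panel per gene, own y axis from 0) in VSMC samples, by vessel. Coloured points joined by lines are the samples of the same number, black bars are vessel means (n = 3), and the dashed line marks 5 CPM. Replicate 1 is the lowest line in every panel but that of ENSCAFG00000018123, and all vena cava samples of ENSCAFG00000014146 sit above its vena porta samples. Neither pattern was counted over all genes.

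Whether the genes differ between vessels was asked within the 9 VSMC samples, with counts of all 11484 genes that passed a filter on low counts. The definition put the same limit on every VSMC sample, so it did not use the difference between vessels, but it leaves out any gene that falls under 5 CPM in one of them. The fits described first had no term for the dog, so vessels were not compared within dogs. With edgeR's quasi-likelihood test over the 3 vessels, 0 of the 5 genes had an adjusted p-value below 0.05, against 0.261% of all genes tested. Without adjustment, 0 of the 5 had a p-value below 0.05, against 1182 of the 11484 genes tested, and DESeq2 called 0 as well, against 3.66% of all genes tested. The adjusted p-values from edgeR ran from 0.551 for ENSCAFG00000014146 to 0.969 for ENSCAFG00000015788.

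Aorta and veins were compared as the aorta against the mean of the vena cava and vena porta. A call required an adjusted p-value below 0.05 together with a log2 fold change beyond 0.4 in either direction, and edgeR called 0 of the 5 genes and 0.462% of all genes tested. Unadjusted p-values below 0.05 were found for 0 of the 5 and for 1441 of the 11484 genes tested, and DESeq2 called 0, against 3.24% of all genes tested. ENSCAFG00000018123 had a log2 fold change of 0.20 (standard error 0.18, 95% interval -0.20 to 0.60), and ENSCAFG00000018877 of 0.27 (standard error 0.37, interval -0.55 to 1.09). ENSCAFG00000015788 was at -0.19 (standard error 0.26), ENSCAFG00000014146 at -0.29 (standard error 0.38), and ENSCAFG00000014847 at -0.29 (standard error 0.31). With single samples left out, the value of ENSCAFG00000014847 ran from -0.74 without aorta 3 to -0.10 without aorta 1. All 5 intervals included 0. The widest, that of ENSCAFG00000014146, ran from 0.453-fold to 1.48-fold.

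The largest estimate among the vessel comparisons was that between the veins in ENSCAFG00000014146. Its vena cava level was 2.34, 2.12, and 2.19 times the vena porta level in dogs 1, 2, and 3. The log2 fold change was 1.07 (standard error 0.44, 95% interval 0.09 to 2.05), with an adjusted p-value of 0.906 and an unadjusted p-value of 0.0356 from edgeR. ENSCAFG00000018877 had the opposite sign, at -0.69 (standard error 0.43, interval -1.65 to 0.27), and was lower in the vena cava than in the vena porta in 3 of 3 dogs. Its log2 fold change ran from -1.20 without vena cava 2 to -0.33 without vena cava 1. ENSCAFG00000014847 was at 0.51 (standard error 0.35), ENSCAFG00000018123 at 0.25 (standard error 0.21), and ENSCAFG00000015788 at -0.05 (standard error 0.30). At the same thresholds, edgeR called 0 of the 5 genes and 0.00871% of all genes tested, while DESeq2 called 0 of the 5 and 0.592% of all genes tested. An unadjusted p-value below 0.05 was found in 1 of the 5, ENSCAFG00000014146, and in 596 of the 11484 genes tested.

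With the replicate number as a block, so that vessels were compared within dogs, the standard errors became smaller and the share of genes called rose. Over the 3 vessels, edgeR then called 3.54% of all genes and 0 of the 5. The adjusted p-value was 0.0570 for ENSCAFG00000014146 and 0.118 for ENSCAFG00000018877. Unadjusted p-values were below 0.05 for 2 of the 5 and for 1960 of the 11484 genes tested. Between aorta and veins it called 3.7% of all genes and 0 of the 5, with 0 of the 5 and 2160 of the 11484 genes at an unadjusted p-value below 0.05. Between the veins it called 0.496% of all genes and 0 of the 5, while ENSCAFG00000014146 (log2 fold change 1.09, standard error 0.25, adjusted p = 0.124) and ENSCAFG00000018877 (log2 fold change -0.73, standard error 0.21, adjusted p = 0.234) had unadjusted p-values of 0.00137 and 0.00560. An unadjusted p-value below 0.05 was found for 1028 of the 11484 genes in that fit. DESeq2 with the same block, a fit added after the data were seen, did call some of them. Over the 3 vessels it called ENSCAFG00000014146 (adjusted p = 0.00375) and ENSCAFG00000018877 (adjusted p = 0.0331), against 6.95% of all genes tested. Between the veins it called ENSCAFG00000014146 (adjusted p = 0.0111), against 1.84% of all genes tested, and between aorta and veins it called 0 of the 5, against 5.94%. The call on the vessel difference in ENSCAFG00000014146 therefore depended on the block and on the tool.

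**Figure D3:**
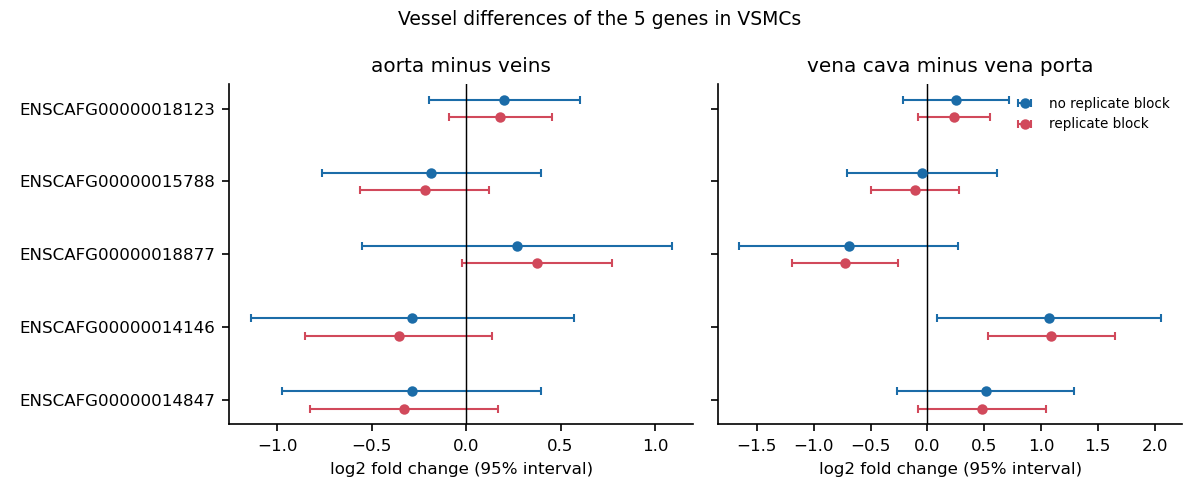
Log2 fold changes of the 5 genes in VSMCs (x axis) for the aorta minus the mean of the veins (left) and the vena cava minus the vena porta (right). Points are estimates from edgeR and bars are 95% intervals, without (blue) and with (red) the replicate block. Every interval on the left includes 0, and on the right the intervals of ENSCAFG00000014146 lie above 0 in both fits, and that of ENSCAFG00000018877 lies below 0 with the block.

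Levels were then compared between dogs, over the 3 vessels. With the vessel in the model, edgeR's quasi-likelihood test called 2 of the 5 at an adjusted p-value below 0.05, against 6.44% of all genes tested. They were ENSCAFG00000018877 (adjusted p = 0.0177) and ENSCAFG00000014146 (adjusted p = 0.0475). ENSCAFG00000018877 was higher in dog 2 than in dog 1 by a log2 fold change of 1.22 (standard error 0.21), and in 3 of 3 vessels. ENSCAFG00000014146 was higher in dog 2 than in dog 1 by 1.16 (standard error 0.26), also in 3 of 3 vessels, and dogs 2 and 3 differed by 0.26 (standard error 0.25).

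The 3 other genes did not pass, with adjusted p-values of 0.0573 for ENSCAFG00000015788, 0.138 for ENSCAFG00000018123, and 0.170 for ENSCAFG00000014847. ENSCAFG00000015788 had dog 3 above dog 1 by a log2 fold change of 0.74 (standard error 0.18). ENSCAFG00000018123 ran the other way, with dog 3 below dog 1 by a log2 fold change of -0.48 (standard error 0.14). In the other 4 genes, dog 1 had the lowest value in each of the 3 vessels, on both the CPM and the TMM scale. How many of all genes have such an order was not counted. All 5 genes had an unadjusted p-value below 0.05 between dogs, as did 2538 of the 11484 genes tested. DESeq2 called 3 of the 5 between dogs, ENSCAFG00000015788 (adjusted p = 0.0142) in addition, against 10.1% of all genes tested. With edgeR, ENSCAFG00000015788 also passed without vena porta 1 (adjusted p = 0.0331), without vena porta 3 (adjusted p = 0.00896), and without the filter on low counts (adjusted p = 0.0164).

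The call in ENSCAFG00000014146 was lost when any of 8 of the 9 VSMC samples was left out, all but vena cava 2, with adjusted p-values of up to 0.226 without aorta 1. That in ENSCAFG00000018877 was lost without aorta 3 (adjusted p = 0.0537) or without vena porta 2 (adjusted p = 0.0691). Both calls were also lost without the vessel in the model, where the adjusted p-value from edgeR was 0.186 for ENSCAFG00000018877 and 0.386 for ENSCAFG00000014146. The dogs were not described further in the labels, and dog, isolation, and culture cannot be told apart.

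The variance of the log2 level over the 9 VSMC samples was divided between vessel, dog, and the rest, as a description. Between dogs lay 43.7% of it for ENSCAFG00000014146, 48.6% for ENSCAFG00000014847, 52.5% for ENSCAFG00000018123, 60.0% for ENSCAFG00000018877, and 68.2% for ENSCAFG00000015788, where the median over all genes tested was 31.1%. Between vessels lay 9.04% for ENSCAFG00000015788 and 43.4% for ENSCAFG00000014146, with the other 3 genes from 21.9% to 28.8% and a median of 24.4% over all genes tested. The standard deviation of the log2 level was 0.29 for ENSCAFG00000018123, against a median of 0.30 over all genes. It was 0.39 for ENSCAFG00000015788, 0.49 for ENSCAFG00000014847, 0.69 for ENSCAFG00000018877, and 0.76 for ENSCAFG00000014146.

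**Figure D4:**
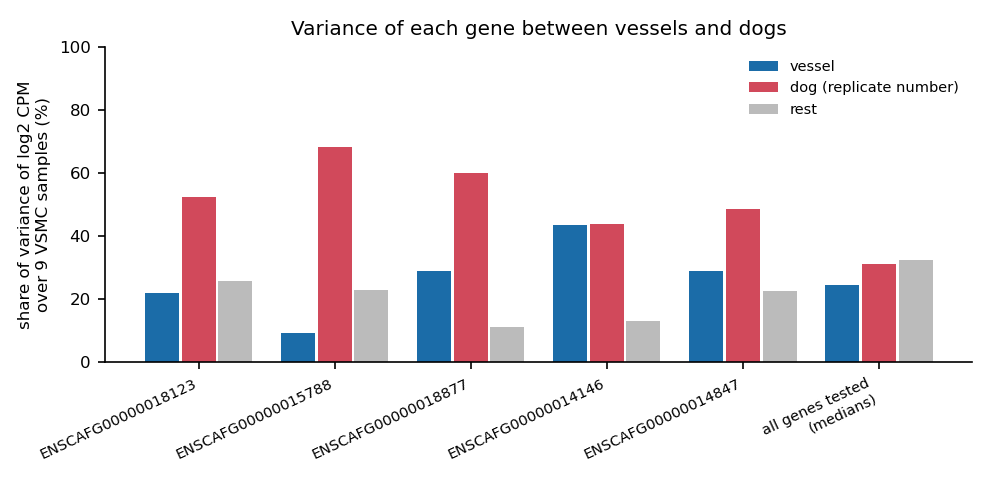
Share of the variance of log2 CPM over the 9 VSMC samples (y axis, percent) that lay between vessels (blue), between dogs (red), and in neither (grey), for each of the 5 genes and as the median over the 11484 genes tested. The red bar is the tallest of each gene, although for ENSCAFG00000014146 it is level with the blue one (43.7% and 43.4%).

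In CaPECs, few reads of these genes were counted, as the definition requires. ENSCAFG00000018123 had 18 reads over all 9 CaPEC samples and 13883 over the VSMC samples. Relative to the reads counted in all genes, the ratio was 639 (exact 95% interval 404 to 1078). The ratio was 192 for ENSCAFG00000018877 (107 to 384), 143 for ENSCAFG00000015788 (91.5 to 238), 66.2 for ENSCAFG00000014146 (42.7 to 109), and 20.05 for ENSCAFG00000014847 (14.5 to 28.5). These intervals cover counting error only, reads without molecular identifiers are not independent molecules, and the ratios describe what the selection used.

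The few CaPEC reads were not spread evenly. ENSCAFG00000018877 had 8 reads in aorta 2 and 3 in aorta 3, and none in the 7 other CaPEC samples. ENSCAFG00000015788 had 9 reads in vena cava 3, 8 in vena cava 2, and 1 each in aorta 1 and aorta 2. ENSCAFG00000014146 had 8 reads in aorta 1, 8 in vena cava 3, and 4 in aorta 2, so that these 3 genes had no read in any of the CaPEC samples of the vena porta. ENSCAFG00000018123 had 7 reads in vena cava 3, 3 in aorta 2, 3 in vena porta 1, 2 in aorta 3, 2 in vena porta 2, and 1 in vena cava 2. ENSCAFG00000014847 had reads in 8 of the 9 CaPEC samples, between 1 and 8 in each.

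Summed over the 5 genes, aorta 2 had the most in CaPECs at 3.99 CPM (24 reads), followed by vena cava 3 at 3.25 CPM (32 reads). Vena cava 1 had 1 read of them, and vena porta 3 had none of 8004604, which allows up to 0.375 CPM. The other 5 CaPEC samples had between 0.373 and 1.65 CPM. Aorta 2 was also the CaPEC sample with the fewest counted reads in all (6020932), so that 1 read weighs more there.

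**Figure D5:**
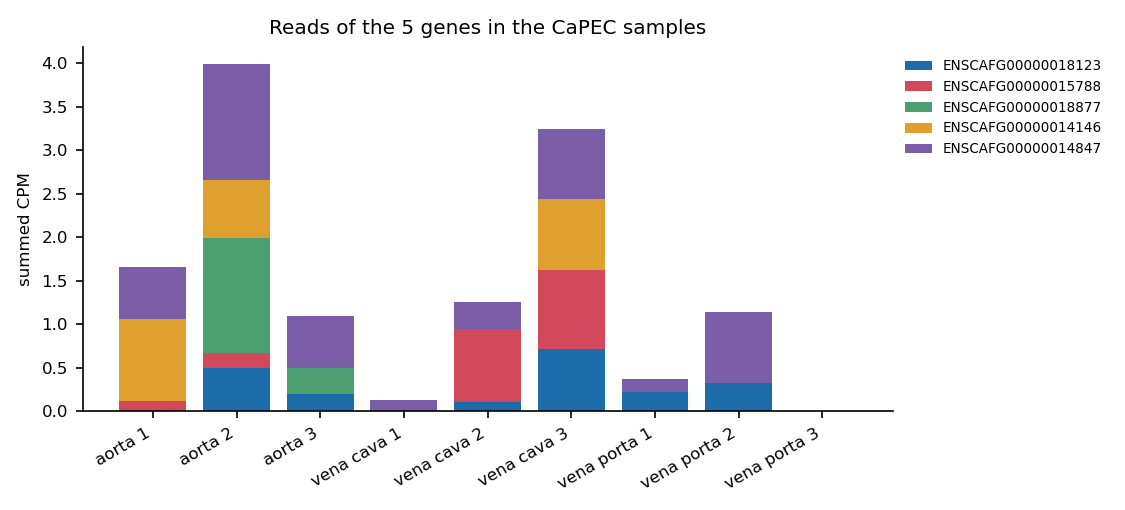
Summed CPM (y axis, from 0) of the 5 genes in each CaPEC sample, with 1 colour per gene. Aorta 2 (3.99 CPM) and vena cava 3 (3.25 CPM) are the tallest bars, and vena porta 3 has no bar because no read of the 5 genes was counted there.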

How the data were processed

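The authors aligned single-end reads of polyadenylated RNA to canFam3 (CanFam3.1 in the submitters' processing notes) with STAR 2.4.2a, counted them per gene with HTSeq-count 0.6.1p1 in union mode, and deposited the raw counts, without normalization. The annotation release and the strand setting of the counting are not given in the sources used here. Samples were grouped by their titles, and columns were matched by the names the labels give.

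CPM was the count divided by the column total. Vessels and dogs were compared over the 9 VSMC samples, without CaPECs, using edgeR 4.0.16 in R 4.3.3 (TMM normalization, filterByExpr with a minimum count of 10, glmQLFit, and glmQLFTest) with Benjamini-Hochberg adjustment over all 11484 genes. The limit of 0.4 on the log2 fold change follows the study's methods, which name DESeq2. Here DESeq2 1.42.0 was an alternative. Standard errors were derived from the F statistic. CaPECs and VSMCs were not compared by a test, since the selection used that difference. Variance shares used log2 CPM with a prior count of 2.

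Same-numbered VSMC samples of different vessels share an isolation code in their column names, and the dogs were 3. The number was therefore treated as the dog. Deviations from the vessel means correlated across genes by 0.0934 to 0.522 over 9 pairs of the same number and by -0.441 to 0.104 over 18 pairs of different numbers. These ranges overlap, and centring on the vessel means lowers the latter by construction, so the pairing rests on the codes and not on this check. Replicates of a group differed by more than sampling noise. The median over genes of the squared difference was at least 3.60 times the variance that counting gives. This used raw column totals, without a correction for composition. Whether the samples were separate cultures is given only by their dogs, so p-values measure the spread between these samples.

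The definition, the tests, and the lists were chosen with earlier results of these data known. The rule for naming genes without symbols allowed 2 genes higher and 2 lower in the aorta. All 5 were named instead. Marker lists could not be used without symbols.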

Additional observations from a re-analysis of the deposited data

Results flagged for a closer look

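Dixon's criterion was applied to 12 groups of 9 samples, the 5 genes and their sum in each cell type. It singled out an extreme sample in 2 of these groups. Its rate of about 1 in 20 by chance is for continuous values, and the selection bounded these values, so that rate does not apply to the CaPEC groups, in which many samples had no read. ENSCAFG00000018877 was at 1.33 CPM in CaPECs of aorta 2, against 0.297 CPM in the next highest CaPEC sample, which corresponds to 8 reads and 3 reads, with no read in the 7 others. The sum of the 5 genes was at 297.4 CPM in VSMCs of vena cava 2, against 244.1 CPM in the next highest VSMC sample. No cause was tested for either value.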

How the results depend on the processing

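The number of genes depended on the limits. It was 3 with 10 CPM in VSMCs, 3 with 1 CPM in CaPECs, 21 with 2 CPM in VSMCs, and 26 with 5 CPM in CaPECs. It was 11 to 16 with the samples of a number left out in both cell types, and 5 to 9 with single samples left out, an alternative added after the data were seen. CPM from TMM library sizes gave the same 5 genes, and DESeq2 size factors gave 6, the 5 among them. Between vessels, none of the 5 genes was called in the planned fits on all samples, which were the replicate block (0 genes in each of the 3 comparisons), DESeq2 without the block, other size factors, no filter, and no limit on the fold change. With samples left out the count of the 5 was also 0, but those fits called only 0 to 39 genes over the 3 vessels, 0 to 57 between aorta and veins, and 0 to 4 between the veins among all genes tested, so this says nothing about stability. Only DESeq2 with the block, added later, called 2 genes over the 3 vessels and 1 between the veins. Between dogs, 0 of the 5 genes were called without the vessel term, 3 with DESeq2, 3 without the filter, and 0 to 2 with samples left out. Among all genes tested, the fits with samples left out called from 134 genes (1.15%, without the samples of dog 2) to 1075 (9.18%, without vena cava 1). The cause of these changes was not tested. The adjusted p-value without the samples of a dog was 0.0444 to 0.295 for ENSCAFG00000018877 and 0.0695 to 0.621 for ENSCAFG00000014146. The block changed no other call. Over all genes, the calls for the 3 vessels, for aorta against veins, and between the veins were 30, 53, and 1 in the reported fit, 406, 425, and 57 with the block, 420, 372, and 68 with DESeq2, 798, 682, and 211 with both, and 101, 107, and 5 without the filter (15964 genes). Between dogs they were 740, against 1162 with DESeq2, 1197 without the filter, and 224 without the vessel term. The direction between aorta and veins turned in ENSCAFG00000018123 (log2 fold change -0.079 to 0.38) and in ENSCAFG00000014146 (-0.92 to 0.048) with samples left out, as did that between the veins in ENSCAFG00000015788 (-0.38 to 0.16). Depth limits ENSCAFG00000014847 and ENSCAFG00000014146 most, with as few as 56 and 53 reads in a VSMC sample.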
